A study of Mus musculus with 74 samples.

Results

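The milk protein genes were 10 mouse genes: the caseins Csn1s1, Csn1s2a, Csn2 and Csn3, the whey genes Wap, Lalba, Ltf and Glycam1, and the milk fat globule membrane genes Btn1a1 and Xdh. They were taken by gene name, with no measured value in the rule, and were 10 of the 22365 distinct gene names in the 6 tables of the study. Each table set bulk RNA from Lung mets against RNA from PTs of 1 model of mammary cancer in female mice, 74 samples in all. The comparison asked which transcripts differed between a PT and its Lung met, and whether that depended on oncogenic driver or genetic background.

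In the oncogenic driver cohort the transgene was carried on the inbred FVB background. FVB Her2 (MMTV-Her2) comprised 6 PTs and 6 Lung mets, FVB C3Tag (C3TAg) comprised 7 and 7, and FVB Myc (MMTV-Myc) comprised 6 and 6. The PyMT-F1 cohort comprised offspring of MMTV-PyMT males bred to females of another inbred strain, with the genotypes BALB/NJ x MMTV-PyMT (BALB, with the strain written BALB/cJ in the study's methods), SEA/GNJ x MMTV-PyMT (SEAGN) and AKR/J x MMTV-PyMT (AKR). By sample title there were 6 PTs and 6 Lung mets of each of these strains. The MMTV promoter is that of the mouse mammary tumor virus, which responds to hormones and is active in secretory mammary epithelium, whereas C3Tag places a viral T antigen under a rat prostate promoter. For the driver models the methods describe surgical removal of the PT from animals with single lesions, which were aged further before their Lung mets were taken, so tissue and time of sampling cannot be told apart in such animals. PyMT-F1 animals gave both tissues at the endpoint, all PTs of 1 animal were combined, and reproductive state is not given in the sources used here. In each PyMT-F1 genotype the sample titles name AKRJ, SEA/Gn and BALB strains together, against the genotype label. BALB and SEAGN below follow the names of their tables, and whether their means pool samples by title or by genotype label is not known. The table deposited as AKR also used another gene annotation than the BALB and SEAGN tables, so the cross behind its means was not settled and may be one with no sample among the 74. It is called the PyMT-F1 table deposited as AKR.

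Milk proteins are made by the luminal secretory (alveolar) cells of the mammary gland, whose casein and whey genes are switched on in pregnancy and lactation. Prolactin binds its receptor Prlr, Jak2 phosphorylates Stat5a and Stat5b, and these factors act with Elf5 on milk gene promoters. Caseins form the calcium-binding micelles of milk, whey proteins stay in solution, and Btn1a1 and Xdh help to wrap fat droplets in membrane. Several of these genes are also active outside the gland: Ltf is stored in neutrophil granules, and Glycam1 is made by the high endothelial venules of lymph nodes.

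Each measured table held 1 normalized least-squares mean for PT and 1 for Lung met of each gene. No value of a single animal was analysed here, so a mean carries no SD, the depth per sample is unknown, 1 animal could decide a mean, and no difference was tested. A gene is called higher or lower only where its means differ by at least 2-fold, and other differences are given as log2 of the Lung met mean over the PT mean. The 5 tables with means were normalized separately, and levels in different tables are side by side, not compared. Her2 had means for all 10 genes. In C3Tag only Csn3, Ltf and Xdh had a row, and Csn1s1, Csn1s2a, Csn2, Wap, Lalba, Glycam1 and Btn1a1 had none. BALB and SEAGN had no row named Csn1s1 or Glycam1, and BALB listed Csn1s2a and Csn2 without means. In BALB 2678 of 17363 rows and in SEAGN 2686 of 17404 rows carried no gene name. Csn1s1 and Glycam1 could be among those rows. The PyMT-F1 table deposited as AKR listed all 10, with Csn1s1 and Glycam1 lacking means. The Myc table named all 10 genes and held no mean, so no Myc value is given.

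The tissue labels were set against marker genes. The luminal epithelial genes Krt8, Krt18, Epcam and Cdh1 were present in both tissues of all 5 tables, and the median log2 difference over 7 or 8 luminal markers lay between -0.06 and 0.12. Of 8 lung epithelial genes, Sftpc, Sftpb, Sftpa1 and Scgb1a1 had no mean in any table. The other 4, Ager, Lamp3, Sftpd and Hopx, were at least 2-fold higher in Lung met in all 5 tables, 4 of 4 each time. Their summed mean went from 1386 to 5714 in Her2, from 218 to 14987 in C3Tag, from 33.5 to 863 in BALB, from 35.8 to 1683 in SEAGN and from 677 to 24775 in the PyMT-F1 table deposited as AKR. RNA of the measured lung epithelial genes was thus higher in Lung met throughout, and its part in the values below was not tested. In bulk RNA, fewer cells of a type and less RNA per cell cannot be told apart.

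The 4 caseins and Csn1s2b lie on chromosome 5 within 266 kb (GRCm38, chr5:87666208-87932665), with Csn2 alone on the minus strand. The span holds 7 protein-coding genes, and of the 2 that are no caseins, Prr27 and Odam, Odam had means in Her2 and BALB and Prr27 in no table. In the RefSeq window from 250 bases before to 50 bases after the start (GRCm38.p6), 4 of the 7 members with a window held TTCNNNGAA, the palindromic letters that STAT5 factors are known to bind, against 8.30% of 32851 windows of the same length. The stretches around the 4 matches are shown because they hold these letters. The 9 matching bases are in capitals, and each sequence runs 5′ to 3′ on the strand of its gene. A match is a description of letters and not a measured binding site.
Csn1s1: tttgtaacaaTTCTTAGAAtttatgtaaa
Csn1s2a: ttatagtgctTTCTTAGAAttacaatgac
Csn2: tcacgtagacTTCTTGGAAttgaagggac
Glycam1: gccaactcatTTCCCAGAAacaccaattc
They lie at chr5:87666098-87666126 (plus strand), chr5:87774460-87774488 (plus), chr5:87699500-87699528 (minus) and chr15:103565208-103565236 (minus), and the core starts at -100, 20, -93 and -145 bases from the RefSeq start. The gene spans given below come from another annotation with other starts for Csn1s2a and Csn2. By those spans the Csn1s2a stretch lies before its gene and the Csn2 stretch inside its gene. Csn1s1 and Csn1s2a carried the same 9 letters, TTCTTAGAA, and Csn2 and Glycam1 carried others. The windows of Wap, Lalba and Ltf held no match.

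**Figure D1:**
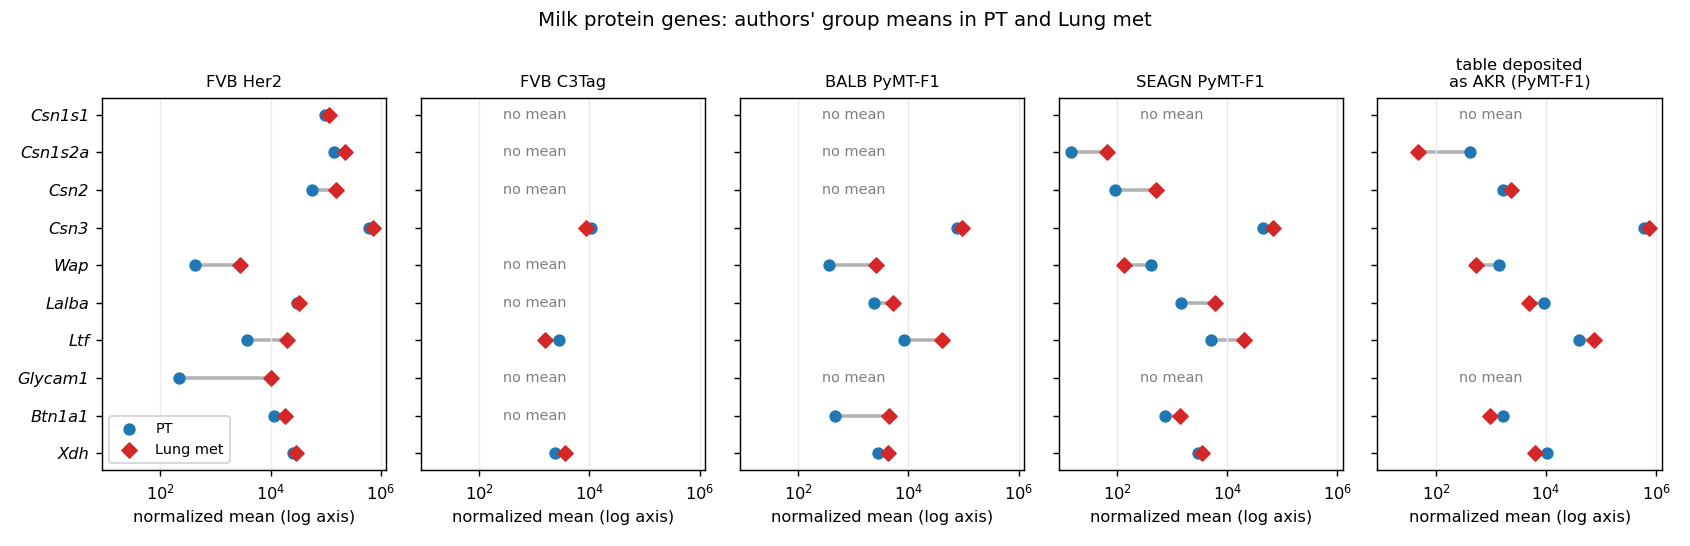
Normalized group means of the 10 genes (log axis) in PT (blue circles) and Lung met (red diamonds), 1 panel for each table, where each point is the authors' mean of a tissue and no error is available (the samples behind the PyMT-F1 means, and the cross behind the table deposited as AKR, were not settled). Csn3 is the rightmost gene in every panel, and the longest grey lines are those of Glycam1 in Her2 (log2 difference 5.53), Btn1a1 in BALB (3.23) and Csn1s2a in the PyMT-F1 table deposited as AKR (-3.13).

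Csn3 codes for kappa-casein, which coats and stabilizes the micelle (chr5:87925579-87932665). It was the one casein with means in every table. Its mean went from 616615 in PT to 739326 in Lung met in Her2, from 10797 to 8803 in C3Tag, from 75664 to 93893 in BALB, from 44307 to 68074 in SEAGN, and from 605981 to 740035 in the PyMT-F1 table deposited as AKR. The log2 differences were 0.26, -0.29, 0.31, 0.62 and 0.29, all short of 2-fold, and the one negative value, in C3Tag, became 0.51 when each column was divided by its own sum. Levels were ranked per kb of annotated exon, which for Csn3 is 2561 bases joined over its transcripts, so a shorter main transcript would rank higher. Only genes with a length were ranked, 82.5% of those with means in BALB and SEAGN and 99.7% in the other tables. Among all genes the true place could be lower, mainly in BALB and SEAGN. Per kb, Csn3 in PT ranked 3rd among the genes with a length in Her2, 247th in C3Tag, 10th in BALB, 12th in SEAGN and 3rd in the PyMT-F1 table deposited as AKR. In Lung met the ranks were 3, 310, 5, 5 and 6. Kappa-casein RNA was thus among the 12 highest ranked genes per kb in PT in 4 of the 5 tables, counting genes with a length, and lower in the order in C3Tag.

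Csn1s1 (alpha-s1-casein, chr5:87666208-87682578) had means in Her2 alone, 97227 in PT and 116177 in Lung met, a log2 difference of 0.26. Csn1s2a, an alpha-s2-like casein (chr5:87774567-87788797), went from 139565 to 228137 in Her2, a log2 difference of 0.71. It ranked 6th per kb in the Her2 PT. The other tables with Csn1s2a means held far lower normalized values. In SEAGN the mean was 4.48-fold higher in Lung met, 66.5 against 14.8, and in the PyMT-F1 table deposited as AKR it was 8.75-fold lower, 46.7 against 408. These are opposite directions. Per kb, Csn1s2a in PT lay above 25.4% of the genes with a length in SEAGN and above 73.9% in the PyMT-F1 table deposited as AKR. Without length correction it lay above 47.2% of genes in the latter.

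Csn2 codes for beta-casein, a main micelle protein (chr5:87692624-87699630). Its mean was 2.76-fold higher in Lung met in Her2 (56712 in PT, 156724 in Lung met) and 5.47-fold higher in SEAGN (92.2 and 504). In the PyMT-F1 table deposited as AKR it was 1625 in PT and 2258 in Lung met, a log2 difference of 0.47. The log2 difference of Csn2 was thus above 0 in all 3 tables with means and passed 2-fold in 2 of them. In Her2 the neighbouring caseins did not move by one ratio, since Csn2 and Csn1s2b (1337 and 3323, log2 difference 1.31) passed 2-fold while Csn1s1, Csn1s2a and Csn3 did not.

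Among the whey genes, Wap (whey acidic protein, chr11:6635482-6638637, minus strand) passed 2-fold in every table where it had means, in both directions. It was 6.39-fold higher in Lung met in Her2 (433 in PT, 2767 in Lung met) and 7.07-fold higher in BALB (365 and 2584). It was 3.05-fold lower in SEAGN (414 and 136) and 2.62-fold lower in the PyMT-F1 table deposited as AKR (1419 and 543). The log2 differences within BALB and within SEAGN were thus 2.82 and -1.61. The SEAGN difference lay 4.43 log2 units under the BALB difference, a gap that was not tested because no value of a single animal was analysed.

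Lalba codes for alpha-lactalbumin, the subunit that turns a galactosyltransferase into lactose synthase (chr15:98480400-98482721, minus strand). Its mean was 30513 in PT and 33438 in Lung met in Her2, a log2 difference of 0.13. It was 2.24-fold higher in Lung met in BALB (2329 and 5227) and 4.29-fold higher in SEAGN (1417 and 6083). In the PyMT-F1 table deposited as AKR it was 9189 in PT and 4935 in Lung met, a log2 difference of -0.90. In SEAGN, Lalba and Wap therefore passed 2-fold in opposite directions.

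Ltf codes for lactoferrin, an iron-binding protein of milk and of neutrophil granules (chr9:111019271-111042767). Its mean was 5.24-fold higher in Lung met in Her2 (3777 in PT, 19792 in Lung met), 4.83-fold higher in BALB (8306 and 40131) and 3.93-fold higher in SEAGN (5133 and 20197). In the PyMT-F1 table deposited as AKR it went from 39408 to 74310, a log2 difference of 0.92, and in C3Tag from 2741 to 1532, a log2 difference of -0.84. Neutrophil markers were higher in Lung met in these tables too. The list of 10 had 3 of 4 measured genes at least 2-fold higher in Her2, where Mmp9 was lower, 7 of 7 in C3Tag, 4 of 5 in BALB, 4 of 5 in SEAGN and 6 of 6 in the PyMT-F1 table deposited as AKR. The summed means of the list were 87.7 in PT and 305 in Lung met in Her2, 525 and 3968 in C3Tag, 213 and 651 in BALB, 216 and 837 in SEAGN, and 584 and 8714 in the PyMT-F1 table deposited as AKR. The defining neutrophil genes Camp, Elane and Ly6g had no mean in any table. Ltf passed 2-fold toward Lung met in Her2, BALB and SEAGN. In the PyMT-F1 table deposited as AKR its Lung met mean was 1.89-fold the PT mean, just short of that cut. In C3Tag its PT mean was 1.79-fold the Lung met mean. The part of neutrophil RNA in the Ltf values was not tested.

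Glycam1 codes for a small mucin-like protein of milk and of lymph node vessels (chr15:103562759-103565081, minus strand), and had means in Her2 alone. Its mean was 219 in PT and 10088 in Lung met, 46.1-fold higher, and it rose from rank 5825 to rank 142 per kb. This was the largest difference of any member in any table. Of the 4 markers of high endothelial venules, Fut7 alone had means in Her2, 2.73 in PT and 6.54 in Lung met, while Chst4, Ccl21a and Madcam1 had none. None of the 4 B cell markers had a mean in Her2. Markers of endothelium at large were higher there for 3 of 6 genes, Vwf 9.36-fold, Tek 2.62-fold and Cldn5 2.31-fold, and their summed mean went from 2880 to 4881. Endothelial markers were higher for 5 of 6 genes in C3Tag, 2 of 6 in BALB, 2 of 6 in SEAGN and 6 of 6 in the PyMT-F1 table deposited as AKR, tables without a Glycam1 mean. The part of endothelial RNA in the Glycam1 value was not tested.

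Of the milk fat globule genes, Btn1a1 passed 2-fold in BALB alone and Xdh in no table as normalized by the authors. Btn1a1 codes for butyrophilin, a membrane protein of the fat globule (chr13:23456992-23465901, minus strand). In Her2 it went from 11743 in PT to 18129 in Lung met, a log2 difference of 0.63. It was 9.38-fold higher in Lung met in BALB (465 and 4368), and its log2 differences were 0.89 in SEAGN (739 and 1374) and -0.76 in the PyMT-F1 table deposited as AKR (1621 and 955). Xdh codes for xanthine dehydrogenase, a housekeeping enzyme of purine breakdown that also binds butyrophilin on the globule (chr17:73883895-73950196, minus strand). It passed 2-fold in no table, with log2 differences of 0.18 in Her2 (25123 in PT, 28368 in Lung met), 0.62 in C3Tag (2324 and 3575), 0.63 in BALB (2774 and 4304), 0.23 in SEAGN (2982 and 3492) and -0.69 in the PyMT-F1 table deposited as AKR (10263 and 6345). Dividing each C3Tag column by its own sum made Xdh 1.42 on the log2 scale, past 2-fold. The pair bound together on the globule thus differed most in BALB, where Btn1a1 passed 2-fold and Xdh did not.

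**Figure D2:**
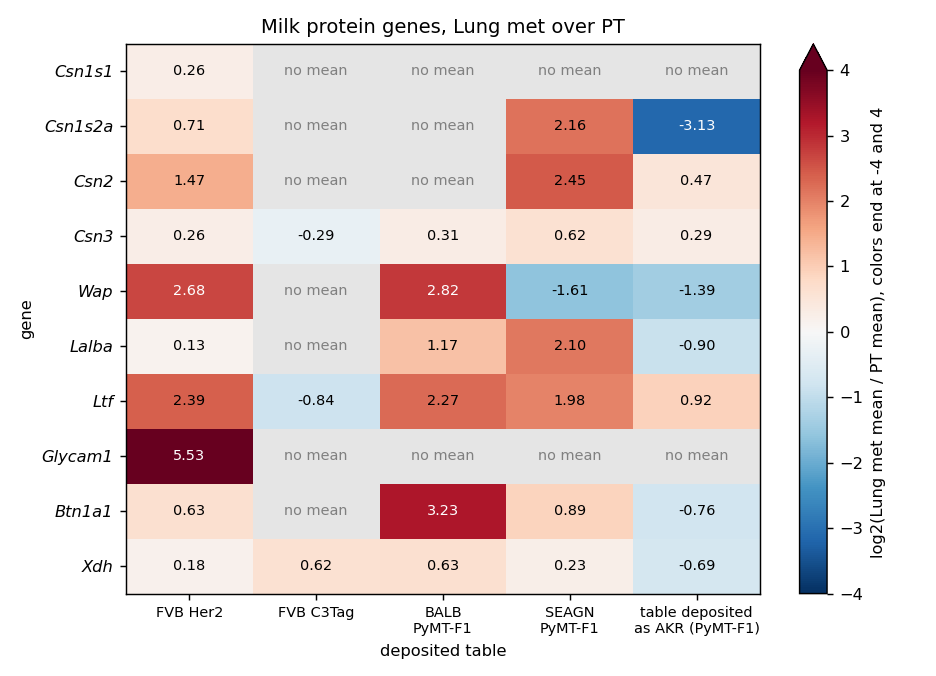
Log2 of the Lung met mean over the PT mean for each gene (rows) and table (columns), with red for higher and blue for lower in Lung met, colors ending at -4 and 4, and grey where a table had no mean. The Her2 and BALB columns hold no negative value, the PyMT-F1 table deposited as AKR holds 5 of 8, and the negative Csn3 value of C3Tag became positive (0.51) with each column divided by its own sum.

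By table, all 10 members had a log2 difference above 0 in Her2, with a median of 0.67 against -0.00 over all genes. Of these, 4 were at least 2-fold higher (Csn2, Wap, Ltf, Glycam1) and 0 lower, where 2.38% of all genes of the table were higher and 1.43% lower. In BALB 6 of 6 had a log2 difference above 0, with a median of 1.72 against 0.03 over all genes. There 4 (Wap, Lalba, Ltf, Btn1a1) were at least 2-fold higher and 0 lower, against 2.26% and 2.4% of all genes. In SEAGN 4 of 8 (Csn1s2a, Csn2, Lalba, Ltf) were at least 2-fold higher and 1 (Wap) lower, against 2.86% and 3.22%, with medians of 1.44 and 0.02. In these 3 tables the members past 2-fold were a larger share than the background, mostly toward Lung met.

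In the other tables no member was at least 2-fold higher in Lung met on the authors' means. With only 8 and 3 members measured, a count of 0 higher lies close to the share of all genes. In the PyMT-F1 table deposited as AKR 0 of 8 were at least 2-fold higher and 2 (Csn1s2a, Wap) lower, against 7.31% and 1.73% of all genes, with medians of -0.73 and 0.01. Lalba passed 2-fold lower there (-1.01) with each column divided by its own sum. In C3Tag 0 of 3 passed 2-fold either way, against 7.42% higher and 1.7% lower, and the median of -0.29 (0.01 over all genes) turned to 0.51 with each column divided by its own sum. That scaling moved every C3Tag gene by 0.80 on the log2 scale, because 1 noncoding gene, Gm22614, held 38.3% of the PT column. With sums over protein-coding genes the shift was -0.05.

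As a share of the summed means of protein-coding genes, the members together went from 3.68% in PT to 4.89% in Lung met in Her2, from 1.49% to 2.32% in BALB, from 0.974% to 1.70% in SEAGN and from 2.61% to 3.03% in the PyMT-F1 table deposited as AKR. Genes of BALB and SEAGN without a match by symbol left this sum whatever their type, so the shares there could be too high. Of the whole column, the members made up 1.21% in PT and 1.95% in Lung met in BALB, and 0.806% and 1.43% in SEAGN. In C3Tag they went from 0.0784% to 0.0665%, though as a share of the whole column, Gm22614 included, from 0.0388% to 0.0593%. Milk protein RNA was thus a percent or more of coding signal in 3 of the 5 PTs. Csn3 made up most of each sum, 62.8% in PT and 54.6% in Lung met in Her2, 68.1% and 63.3% in C3Tag, 84.2% and 62.4% in BALB, 80.4% and 68.1% in SEAGN, and 90.5% and 89.2% in the PyMT-F1 table deposited as AKR. Without Csn3, the log2 difference of the summed members was 0.75 in Her2, 0.01 in C3Tag, 1.99 in BALB, 1.56 in SEAGN and 0.48 in the PyMT-F1 table deposited as AKR. The last sum was carried by Ltf, as 5 of the 7 members besides Csn3 had a log2 difference below 0 there. Ltf was also the largest part of the sum without Csn3 in both tissues of BALB and SEAGN. Its mean went from 8306 in PT to 40131 in Lung met in BALB and from 5133 to 20197 in SEAGN.

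**Figure D3:**
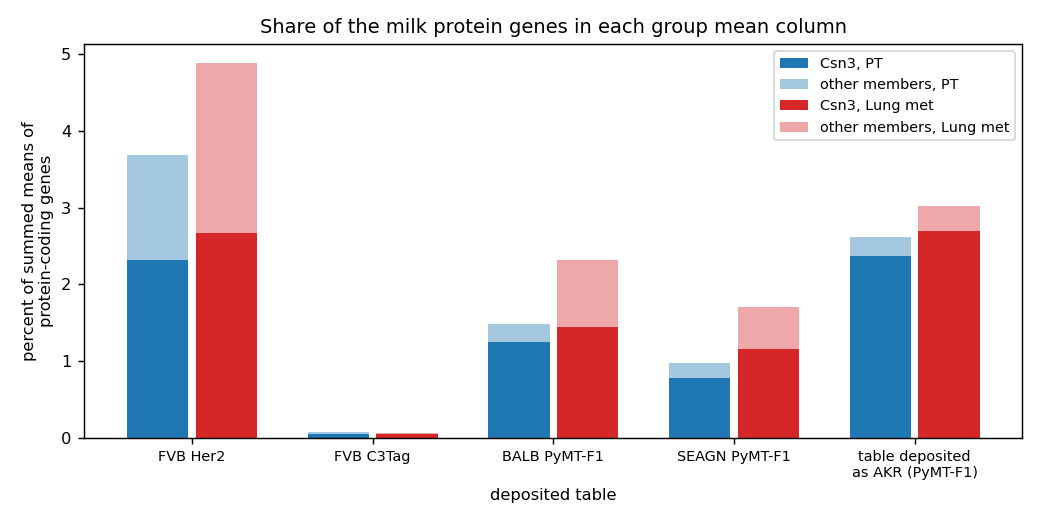
Summed group means of the milk protein genes as a percent of the summed means of the genes annotated as protein-coding (vertical axis from 0), for PT (blue) and Lung met (red) in each table, with Csn3 in the dark part and the other members in the light part of each bar and no error available. In BALB and SEAGN, genes without a match by symbol are missing from the coding sum. The Her2 and BALB bars are taller in Lung met mainly through the light part, the SEAGN bar through both parts, and the C3Tag bars stay under 0.1% on this scale.

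Genes that act with the members were set beside them. Of the 15 genes of lactogenic signaling, 12 to 15 had means in a table, and 0 passed 2-fold in Her2, BALB, SEAGN and the PyMT-F1 table deposited as AKR. In C3Tag 2 were higher, Socs2, a Stat5 target that restrains the pathway (504 in PT, 2220 in Lung met), and Tnfsf11 (24.0 and 60.8). Elf5, a driver of alveolar fate, had log2 differences of 0.44 in Her2, -0.61 in C3Tag, 0.53 in BALB, 0.48 in SEAGN and -0.43 in the PyMT-F1 table deposited as AKR. Signs differed between genes of the list. Jak2 was above 0 in all 5 tables, from 0.06 to 0.65, and Nfib in Her2 alone (0.11). Stat5b was -0.005 in Her2, -0.008 in C3Tag, 0.35 in BALB, 0.23 in SEAGN and -0.46 in the PyMT-F1 table deposited as AKR. Stat5a had no mean in BALB or SEAGN, and was 0.16 in Her2, 0.002 in C3Tag and -0.42 in the PyMT-F1 table deposited as AKR. Prlr lay between -0.61 and 0.29 in the 5 tables.

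Of the 16 genes of milk lipid and lactose synthesis, 1 was at least 2-fold higher in Her2 (Fabp3, a fatty acid carrier), 2 in BALB (Fasn and Lpl), 1 in SEAGN (Lpl) and 1 in the PyMT-F1 table deposited as AKR (Lpl). Cidea was lower in C3Tag and SEAGN, and Thrsp in C3Tag. Lpl, which releases fatty acids from blood lipids, went from 175 in PT to 814 in Lung met in BALB. Fabp4, the one adipocyte marker with means, had log2 differences of -0.38 in Her2, -0.59 in C3Tag, -2.73 in SEAGN and -0.50 in the PyMT-F1 table deposited as AKR. The list medians for lipid and lactose synthesis were 0.32 in Her2, -0.01 in C3Tag, 0.54 in BALB, 0.13 in SEAGN and -0.00 in the PyMT-F1 table deposited as AKR.

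Among 10 other milk products, 5 of 9 measured were at least 2-fold higher in Lung met in Her2 and 0 lower. They were Csn1s2b, Cel, Muc1, Saa3 and Spp1, a secreted phosphoprotein of milk that many other cells also make (9047 in PT, 71448 in Lung met). In BALB 2 of 9 were higher (Cel and Saa3), in SEAGN 1 of 9 (Lpo), and in the PyMT-F1 table deposited as AKR 1 of 10 (Saa3) with 1 lower (Pigr). In C3Tag Muc1 was higher, and Folr1 and Saa3 were lower, of 6 measured. The list medians of 1.31, 0.50, 0.03, -0.14 and -0.08, in that order, were above that of the members in Her2, C3Tag and the PyMT-F1 table deposited as AKR, and below it in BALB and SEAGN.

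**Figure D4:**
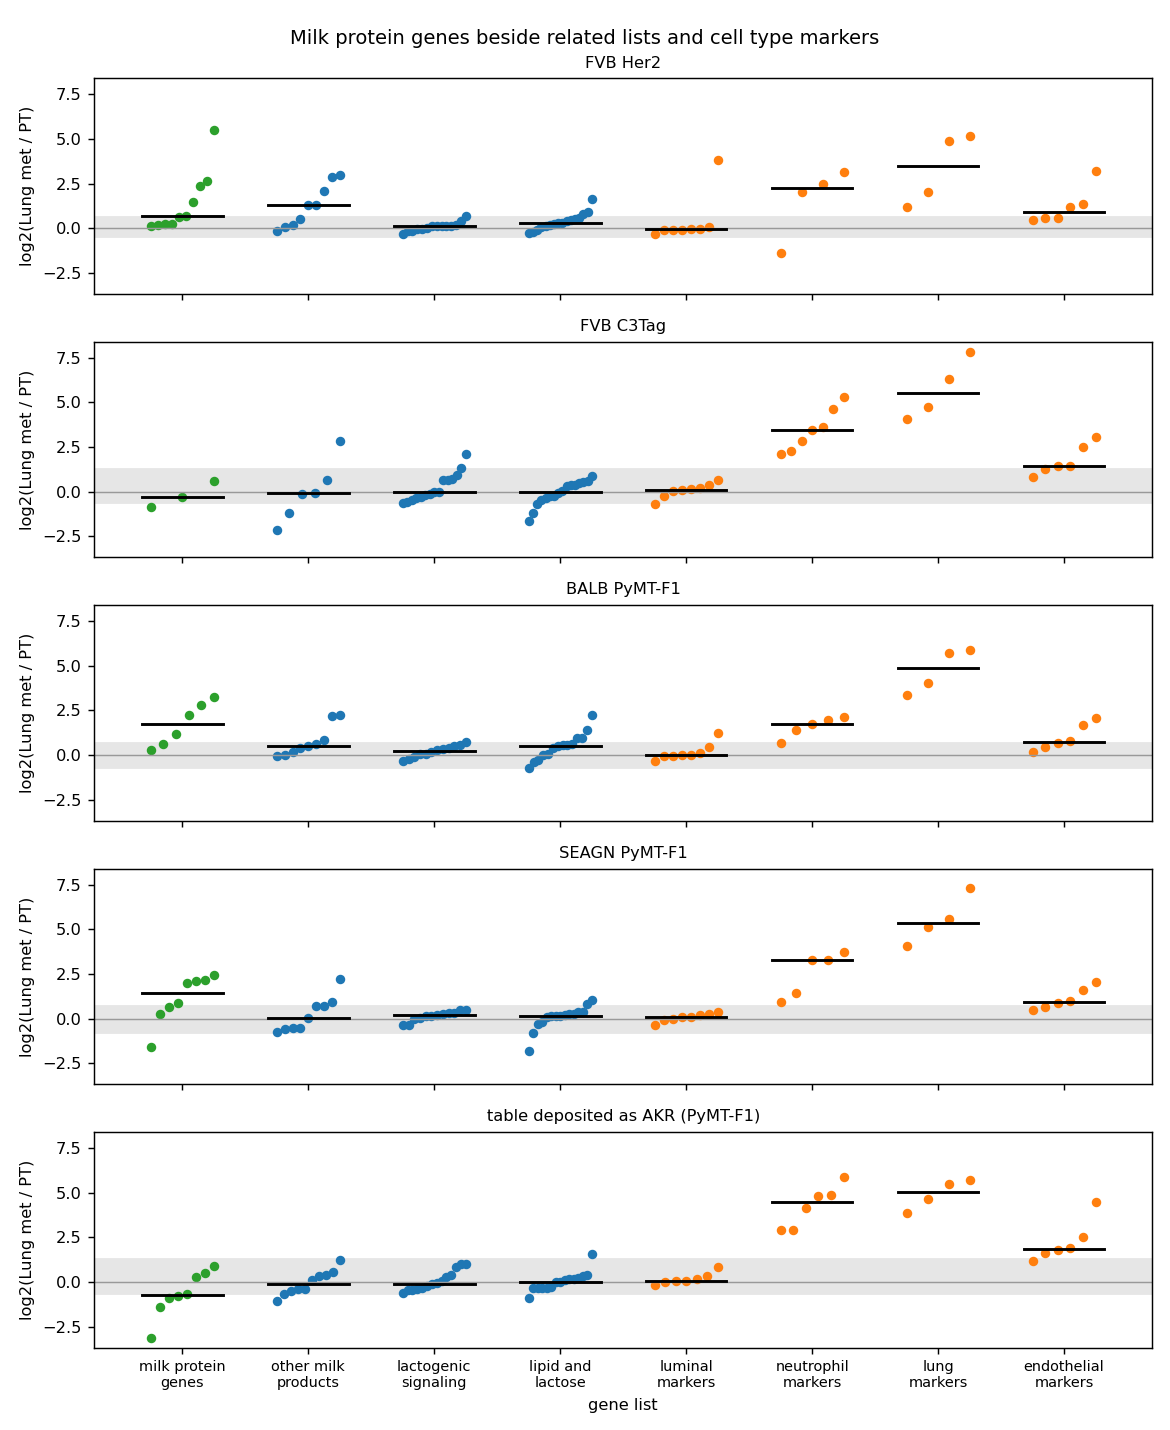
Log2 of the Lung met mean over the PT mean for each gene with means, in 1 panel for each table, with the milk protein genes in green, related lists in blue and cell type markers in orange, a black bar at each list's median, and a grey band from the 5th to the 95th percentile of all genes. Lung markers lie above 0 in every panel and luminal markers between -0.68 and 0.85 except Krt19 (3.81 in Her2, 1.23 in BALB), and 1 of the 3 C3Tag members, Csn3, turns from below to above 0 with each column divided by its own sum.

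The level of Csn3 across the 10 group means, as a share of each column's sum on a log2 scale, was set against the level of 12311 genes. This puts levels of separately normalized tables side by side, and the shares in the C3Tag PT column are lowered by Gm22614. The 5 genes most alike were Plet1 (Pearson's r = 0.985), Klhl13 (0.983), Tmem47 (0.982), Hey1 (0.975) and Mgst1 (0.975). Among other members and genes of the lactogenic and other milk product lists, r ranged from 0.963 for Id2 to -0.841 for Socs1. It was 0.952 for Folr1, 0.865 for Elf5, 0.809 for Xdh and 0.702 for Ltf. Lower values were 0.504 for Prlr, 0.387 for Spp1, 0.193 for Muc1 and 0.189 for Jak2. Below 0 were also Nfib (-0.730), Socs3 (-0.621), Saa3 (-0.533) and Cebpb (-0.337). The 10 points are 5 pairs from 1 table each and mostly follow the model, so these values are a description with no test.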

How the data were processed

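RNA was taken from whole PT and Lung met tissue, and 5 of 6 tables had usable values. The authors aligned reads and counted genes in Partek Flow, normalized the counts by a method not given in the sources used here, and compared tissues with Gene Specific Analysis (drivers) or DESeq2 (PyMT-F1). The submitters' processing notes name STAR 2.7.8a, DESeq2 and mm39, whereas the study's methods name mm9 and mm10. The deposited signal columns used here each give 1 least-squares mean per gene and tissue, made by the authors from their normalized counts. Columns of p-values, FDR, ratios and fold changes hold the authors' own comparisons and were not used, which left the Myc table without values.

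Log2 ratios of these means and counts past 2-fold were computed for every gene with Python 3.11.15, pandas 2.3.3 and numpy 2.4.6, plotted with matplotlib 3.10.9 and tested on simulated data. No test was possible on group means. The text names all 10 members, gives the lists by counts and medians, and gives the 5 genes most like the caseins, for which Csn3 stood alone because the other caseins lacked means in some tables. Members and lists were chosen with earlier results of these data known. Genes named from the lists, the neighbours of the caseins and Gm22614 were chosen after their values were seen. Exon lengths and coordinates are from GENCODE M21 basic transcripts (GRCm38), a choice made after the full set gave lengths with retained introns. BALB and SEAGN genes were matched to them by symbol, and 82.5% had a length. Gene types were matched in the same way. Promoter windows are from RefSeq (GRCm38.p6), which had no entry for Csn3, Btn1a1 and Xdh. Alternatives were a pseudocount of 1 or 10, a mean of at least 10, other scalings, other folds and no length correction.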

Additional observations from a re-analysis of the deposited data

How the results depend on the processing

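Of the alternatives tried, only other scalings could turn the sign of a ratio of means, and they shift all genes of a table alike. Of 35 member values, 1 turned, Csn3 in C3Tag, 0.51 with each column divided by its own sum. The same scaling moved the C3Tag median to 0.51, Xdh to 1.42 and Ltf to -0.04 there, since Gm22614 takes up much of the PT column, and the protein-coding sum, an alternative chosen after seeing the data, moved no value by over 1.5-fold. Over the 5 tables, 12 values were at least 2-fold higher and 3 lower. With a fold of 1.5 these counts were 19 and 7, with a fold of 4 they were 9 and 1, and with each column divided by its own sum 13 and 4, Lalba in the PyMT-F1 table deposited as AKR reaching -1.01. The share of all genes was computed at 2-fold on the authors' means only. The counts under these alternatives therefore have no background beside them and show only how the number called depends on the setting. Without length correction, 8 PT percentiles moved by over 10 points, those of Wap in 4 tables, Csn2 in 2, and Glycam1 and Csn1s2a in 1 each. No paired analysis was possible because the tables hold 1 mean per tissue and no column of a single animal, and for the same reason no replicate could be left out. Depth and the spread between animals are unknown, so no difference above has an error.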
